A study of Mus musculus with 16 samples.

Results

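The 9 genes described here encode proteins that join the presynaptic and postsynaptic membranes of brain synapses, and the scaffolds behind them. They were listed by name: the neurexins Nrxn2 and Nrxn3, the neuroligins Nlgn1, Nlgn2 and Nlgn3, the scaffolds Shank1, Shank2 and Shank3, and Dlg4, which encodes PSD-95. The 9 symbols were matched to 9 of the 18424 genes in the deposited table, each to 1 Ensembl identifier. The rule is a list of names and uses no measured value, but the list was drawn up with earlier results of these data known. RNA had been sequenced from the medial prefrontal cortex of 16 male C57BL/6N mice at postnatal day 120. Mice with 1 mutated copy of Arid1b, a gene of the SWI/SNF complex that remodels chromatin, were compared with wild-type mice after early exposure to the antidepressant fluoxetine or to vehicle.

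WT-Veh mice were wild type, and their dams drank water with 0.2% saccharin from postnatal day 3 to day 21, so that the pups were exposed to the drinking solution through milk. WT-Flx mice were wild type, and the water of their dams held fluoxetine hydrochloride at 0.1 mg per ml beside the same saccharin. HT-Veh and HT-Flx mice were raised on the same 2 solutions and were heterozygous for a germline mutation of Arid1b. In this CRISPR/Cas9 allele, aimed at exon 5, a stretch of chromosome 17 was deleted and TT inserted, and the study describes it as truncating the protein. Each group held 4 mice, all groups shared the saccharin, and plain water followed weaning. The dose that reached each pup was not measured, and the adult mice had been without drug since day 21.

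Neurexins sit on the axon terminal and bind neuroligins and other partners across the synaptic cleft. Nlgn1 is known mainly from excitatory synapses, Nlgn2 from inhibitory synapses, and Nlgn3 from both. Inside the excitatory postsynapse, PSD-95 binds the tails of neuroligins and glutamate receptors, and Shank proteins form a deeper layer that is linked to PSD-95 through proteins of the Dlgap family. Mutations in NRXN, NLGN and SHANK genes are among the known causes of autism spectrum disorder.

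The tails through which these adhesion proteins bind scaffolds are encoded at the very end of the coding sequence. The last 30 coding bases of the 5 adhesion genes, stop codon included, are shown because neuroligins bind PSD-95, and neurexins bind presynaptic scaffolds such as CASK, through them. Capitals mark the last 4 codons before the stop, which encode the PDZ-binding end. Sequences are from the GENCODE transcripts on GRCm38, 5′ to 3′ on the strand of the gene.
Nrxn2: aagaacaaagacaaaGAGTATTACGTCtga
Nrxn3: aaaaacaaggacaagGAGTATTATGTGtaa
Nlgn1: ccccattcacattcaACAACCAGGGTAtag
Nlgn2: ccccatccccactccACCACTCGGGTAtag
Nlgn3: ccccactcacactccACTACCCGTGTAtag
The Nrxn2 end lies in exon 22 of 22 at chr19:6532119-6532148 on the plus strand, and the Nrxn3 end in exon 20 of 20 at chr12:90332381-90332410 on the plus strand. The Nlgn1 end is at chr3:25433638-25433667 on the minus strand, the Nlgn2 end at chr11:69825203-69825232 on the minus strand and the Nlgn3 end at chrX:101320233-101320262 on the plus strand, each in exon 8 of 8 of its transcript. Both neurexin ends matched at 24 of 30 positions, and the neuroligin ends matched each other at 23 or 24 of 30 positions. A neurexin and a neuroligin end matched at only 6 to 9 of 30 positions. Within the capitals the neurexins matched at 10 of 12 bases and each pair of neuroligins at 9 of 12. This end was shared by 7 of 8 complete coding transcripts of Nrxn2 and by every such transcript of the other genes (5 of 5 for Nrxn3, 4 of 4 for Nlgn1, 2 of 2 for Nlgn2 and 3 of 3 for Nlgn3). The table holds 1 value per gene, so long and short neurexin forms and splice forms were summed.

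The members spanned very different stretches of the genome. Nrxn3 (ENSMUSG00000066392) covered 1612.1 kb of chr12:88722876-90334935, whereas Nlgn2 (ENSMUSG00000051790) covered 14.7 kb of chr11:69823122-69837784. Nlgn1 (ENSMUSG00000063887, chr3:25426215-26332460) and Shank2 (ENSMUSG00000037541, chr7:144001928-144424494) were also long, at 906.2 and 422.6 kb. The other 5 genes covered 26.8 to 125.4 kb, namely Nrxn2 (ENSMUSG00000033768, chr19:6418731-6544169), Nlgn3 (ENSMUSG00000031302, chrX:101299168-101325963), Shank1 (ENSMUSG00000038738, chr7:44310253-44360572), Shank3 (ENSMUSG00000022623, chr15:89499623-89560261) and Dlg4 (ENSMUSG00000020886, chr11:70016942-70047522). All 9 are protein-coding in the annotation of GRCm38.

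The scaffold genes Shank1 and Dlg4 were the most abundant members in this cortex and Nlgn1 the least. Values are normalized read counts, that is, estimated reads per gene divided by a normalization factor of the authors, and the sequencing depth behind them is unknown. Per kb of annotated exon, the mean over 16 mice was 2548 ± 559 (SD) for Shank1 and 1869 ± 123 for Dlg4. Nlgn2 followed at 1307 ± 77.4, then Shank3 at 910 ± 109, Nrxn2 at 844 ± 60.2, Shank2 at 669 ± 125, Nrxn3 at 513 ± 46.1, Nlgn3 at 335 ± 38.1 and Nlgn1 at 153 ± 17.3. The ranges of the 16 mice did not overlap between Dlg4 and Nlgn2, Nlgn2 and Shank3, Nrxn3 and Nlgn3, or Nlgn3 and Nlgn1. The other neighbours in this order, Shank1 and Dlg4 and the 4 genes from Shank3 to Nrxn3, overlapped. Per kb of the longest coding transcript, Dlg4 (3914 ± 257) came before Shank1 (2726 ± 598), and Nrxn2 (1749 ± 125) came before Nlgn2 (1358 ± 80.4). Nrxn3 (817 ± 73.3) came before Shank2 (801 ± 150), which overlapped, so these places in the order depend on which length is used.

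**Figure D1:**
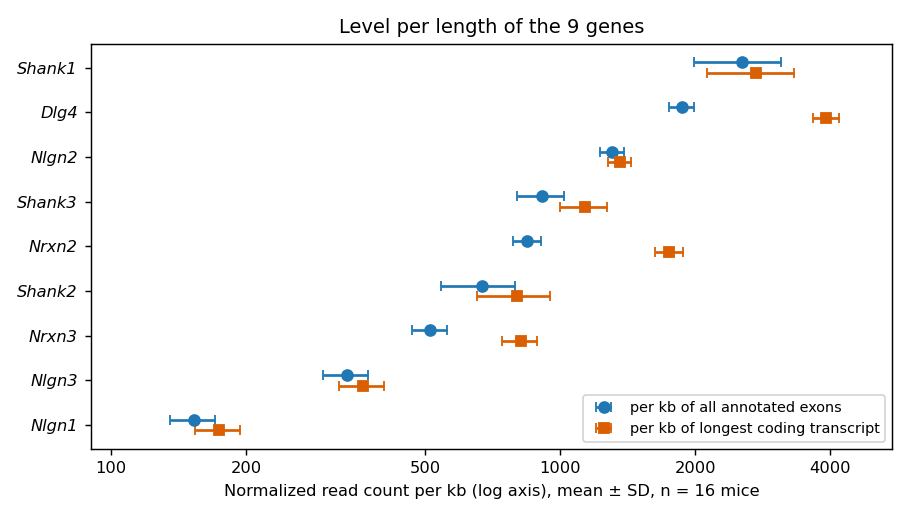
Mean normalized read count per kb of each gene over 16 mice on a log axis, with bars of 1 SD, for 2 definitions of gene length (circles, all annotated exons; squares, longest coding transcript). Shank1 and Dlg4 lie at the top and Nlgn1, at 153 per kb of exon, at the bottom.

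Within each family 1 gene supplied most of the signal. Of the length-scaled neuroligin signal (per kb of exon), Nlgn2 made up 72.9% ± 1.92 (SD, n = 16), with a range of 69.7 to 75.5%, Nlgn3 18.6% ± 1.56 and Nlgn1 8.51% ± 0.712. The inhibitory-synapse neuroligin thus had the largest share in every mouse. Of the Shank signal, Shank1 made up 61.3% ± 3.96, Shank3 22.5% ± 3.51 and Shank2 16.2% ± 1.31. Of the signal of the 2 neurexins, Nrxn2 made up 62.2% ± 2.99 and Nrxn3 37.8% ± 2.99.

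The members differed in how much they varied between mice. The coefficient of variation over 16 mice was smallest for Nlgn2 (5.92%), Dlg4 (6.56%), Nrxn2 (7.13%) and Nrxn3 (8.97%). It was 11.3% for Nlgn1, 11.4% for Nlgn3 and 12.0% for Shank3, and it reached 18.7% for Shank2 and 21.9% for Shank1. The highest Shank1 value, 36146 for HT-Veh replicate 3, was 2.77 times the lowest, 13046 for WT-Veh replicate 1.

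**Figure D2:**
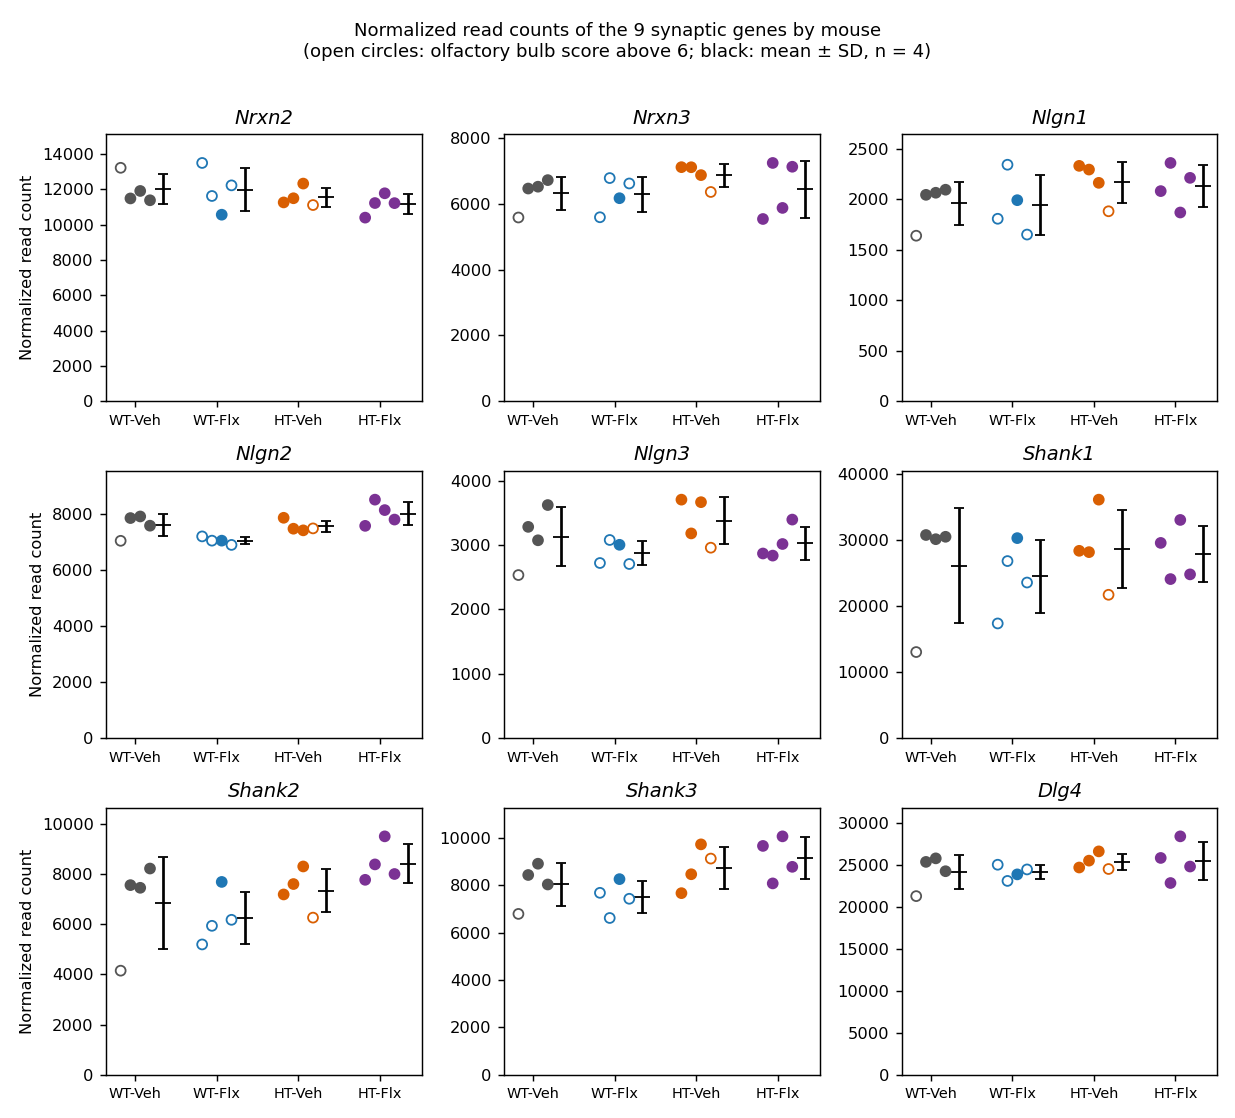
Normalized read count of each gene in each of 16 mice, by group (circles, mice in replicate order; black bars, mean ± 1 SD of 4 mice; open circles, the 5 mice whose olfactory bulb score is above 6). In the Shank1 and Shank2 panels WT-Veh replicate 1 lies lowest, at 13046 and 4145.

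Samples differed in the level of olfactory bulb markers, and these levels moved with several members. A score, the mean log2(value + 1) of 7 markers of the bulb (Eomes, Tbx21, Cdhr1, Doc2g, Shisa3, Trh and Nmb; an eighth, Lhx1, had no row), ran from 4.28 to 9.61 for WT-Veh, 4.99 to 9.20 for WT-Flx, 4.34 to 7.85 for HT-Veh and 4.10 to 4.78 for HT-Flx. It was above 6 in 5 mice (WT-Veh replicate 1, WT-Flx replicates 1, 2 and 4, HT-Veh replicate 4) and below 5 in the other 11. All 7 markers were above 0 in every mouse but 1, in which Eomes was listed at 0. The 4 markers of cortical glutamatergic neurons (Slc17a7, Neurod6, Tbr1 and Camk2a) were present in every mouse, and their score ranged from 13.30 in WT-Veh replicate 1 to 13.97. Group means of the scores were 13.69 to 13.81 for these markers, 11.32 to 11.63 for GABAergic, 11.97 to 11.98 for astrocyte, 12.44 to 12.63 for oligodendrocyte and 9.63 to 9.79 for microglia markers. The microglia score did not overlap between HT-Veh (9.74 to 9.91) and WT-Veh (9.49 to 9.71), and its part in that comparison was not tested. Arid1b, the mutated gene, was at 1787, 2453, 2831 and 2401 in the WT-Veh mice and at 1902, 2433, 2255 and 2047 in the WT-Flx mice. The HT-Veh mice had 2005, 1753, 1802 and 1619, and the HT-Flx mice 1669, 1661, 1671 and 1545. Replicate 1 of WT-Veh and replicate 1 of WT-Flx lay within the range of the HT mice, 1545 to 2005. Both scored above 6. Over both treatments Arid1b was lower in HT, with a log2 change of -0.39 (SE 0.080, unadjusted limma p 0.00011, adjusted p 0.097). Every HT-Flx mouse was below every WT-Flx mouse, where 5.83% of all genes did not overlap. The log2 change of Arid1b per unit of bulb score was -0.068 (adjusted limma p 0.042), where 12.7% of all genes passed an adjusted p of 0.05.

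Shank1, Shank2 and Nlgn3 fell as the bulb score rose among mice of the same group. In a limma fit over all 16 mice with the 4 group means as covariates, 3 of the 9 members passed an adjusted p of 0.05, all lower, where 12.7% of all 17567 genes passed (7.53% lower and 5.13% higher). At an unadjusted p under 0.05 there were 4 of 9, where 27.9% of all genes passed. The log2 change per unit of score was -0.18 (SE 0.033, adjusted p 0.0020) for Shank1, -0.14 (SE 0.022, adjusted p 0.00077) for Shank2 and -0.063 (SE 0.019, adjusted p 0.035) for Nlgn3. In percent these slopes were -11.9, -8.94 and -4.25 per unit, over a score range of 5.51 units. The other slopes did not pass, at -0.057 for Nlgn1 (adjusted p 0.096), -0.041 for Shank3 (0.21), -0.030 for Dlg4 (0.23), -0.023 for Nrxn3 (0.50), -0.016 for Nlgn2 (0.43) and 0.025 for Nrxn2 (0.33). The calls rested on WT-Veh replicate 1, which had the highest bulb score and the lowest glutamatergic score. Without that mouse the slopes were -0.12 for Shank1 (adjusted p 0.27), -0.092 for Shank2 (0.18) and -0.048 for Nlgn3 (0.55), and the number of genes past the threshold fell from 2225 to 149. The unadjusted limma p of these slopes was then 0.013, 0.0047 and 0.093, where 1963 of 17497 genes had one under 0.05. The Nlgn3 call was also lost without any 1 of WT-Veh replicates 2 and 4, WT-Flx replicates 3 and 4, and HT-Veh replicates 3 and 4. In bulk tissue, fewer cells of a type and less RNA per cell cannot be told apart.

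The values by mouse, without a fit, compare the 5 mice scoring above 6, of which 4 were WT, with the other 11, of which 7 were HT. In the 5 mice with a score above 6, Shank2 was at 4145 in WT-Veh replicate 1, at 5189, 5930 and 6170 in WT-Flx replicates 1, 2 and 4, and at 6256 in HT-Veh replicate 4. In the 11 other mice Shank2 ran from 7179 to 9491, with a median of 7761, so that every high-score mouse lay below every low-score mouse. Mean Shank2 of the 5 mice was 69.6% of that of the 11. Shank1 stood at 69.2%, with ranges of 13046 to 26836 and 24105 to 36146 that overlapped. The corresponding values were 86.2% for Shank3, 86.4% for Nlgn3, 87.2% for Nlgn1, 92.1% for Nlgn2, 93.6% for Nrxn3 and 93.7% for Dlg4. Nrxn2 alone was higher in the 5 mice, at 109%.

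**Figure D3:**
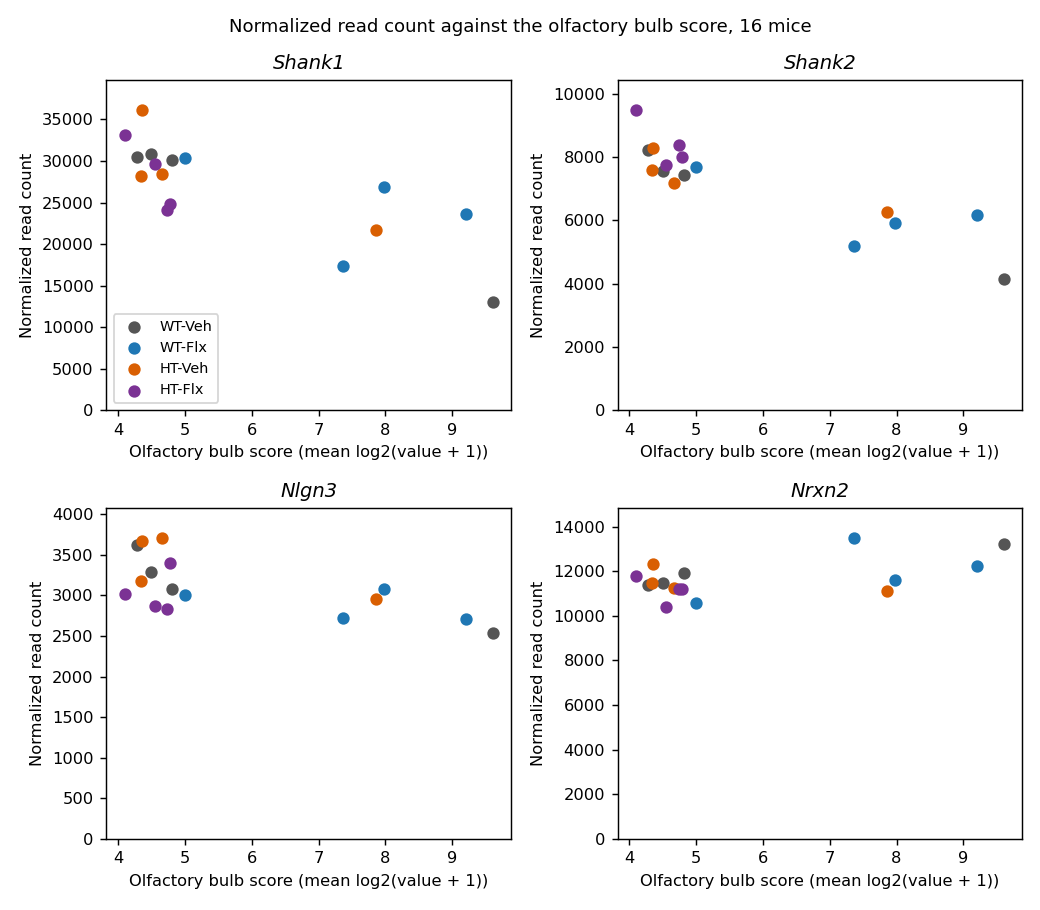
Normalized read count of Shank1, Shank2, Nlgn3 and Nrxn2 (vertical axes) against the olfactory bulb score of the same mouse (horizontal axes, mean log2(value + 1) of 7 markers), 1 point per mouse and 1 colour per group. The 5 mice above a score of 6 lie below the other 11 in the Shank2 panel.

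To examine genotype without drug, HT-Veh was compared with WT-Veh. No member passed an adjusted p of 0.05 in limma (0.0178% of 16832 genes did) and none had an unadjusted p under 0.05 (4.88% of genes did). The groups overlapped for all 9 members, where 3.84% of genes did not overlap. The log2 change was above 0 for 7 of 9 members, against 51.8% of all genes, with a median of 0.12 against 0.0062 over all genes. The smallest p belonged to Nrxn3, which was at 7104, 7102, 6863 and 6352 in HT-Veh and at 5578, 6456, 6512 and 6712 in WT-Veh. HT-Veh was higher in 3 mice than in any WT-Veh mouse, but the fourth lay inside the WT-Veh range, and the change was 0.12 (SE 0.075, unadjusted limma p 0.14, adjusted p 0.92). The largest changes, 0.19 for Shank1 (95% interval -0.41 to 0.79) and 0.15 for Nlgn1 (-0.076 to 0.37), were within the spread between mice. WT-Veh replicate 1 had the lowest Shank1, Shank2, Shank3, Nlgn1, Nlgn2, Nlgn3, Nrxn3 and Dlg4 of its group and the highest Nrxn2. Without mice scoring above 6, which left 3 per group, the change of Shank1 went from 0.19 to 0.010, that of Shank2 from 0.14 to -0.0099 and that of Nrxn2 from -0.054 to 0.012. In that fit Nlgn1 (0.13, unadjusted limma p 0.033, adjusted p 0.42) and Nrxn3 (0.098, unadjusted limma p 0.044, adjusted p 0.44) had an unadjusted p under 0.05. So did 1798 of all 16508 genes in that fit. The same held with the bulb score as a covariate, at 0.11 for Nlgn1 (unadjusted limma p 0.047, adjusted p 0.50) and 0.098 for Nrxn3 (unadjusted limma p 0.034, adjusted p 0.47). There, 1639 of all 16832 genes had an unadjusted p under 0.05.

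The effect of early fluoxetine on adult HT mice was examined in HT-Flx versus HT-Veh. No member passed the adjusted threshold (0% of 16814 genes did) and none had an unadjusted p under 0.05, where 3.07% of genes did. None of 9 separated the groups, as 1.99% of genes did. The member with the smallest limma p was Shank2, a scaffold of excitatory synapses, at 7761, 8375, 9491 and 7993 in HT-Flx and 7179, 7593, 8293 and 6256 in HT-Veh. HT-Flx was higher in 2 mice than every HT-Veh mouse, and the other values overlapped. The change was 0.20 (SE 0.092, unadjusted limma p 0.051, adjusted p 1.00). It was 0.13 both without HT-Veh replicate 4, the only one of these mice with a bulb score above 6 (unadjusted limma p 0.16), and with the score as a covariate (unadjusted limma p 0.12). By exact permutation the smallest p was that of Nlgn2 (0.086, change 0.082), ahead of Shank2 (0.11). Nlgn3 was at 2870, 2837, 3018 and 3397 in HT-Flx and 3707, 3182, 3668 and 2960 in HT-Veh, a change of -0.15 (SE 0.089, unadjusted limma p 0.11). Without HT-Veh replicate 4 it was -0.22 (unadjusted limma p 0.030, adjusted p 1.00), where 653 of 16656 genes had an unadjusted p under 0.05. The neurexins changed by -0.050 (Nrxn2) and -0.099 (Nrxn3), and Dlg4 by 0.0043. Of the 9 members 4 were above 0, where 51.2% of genes were, with a median of -0.025 against 0.0030 over all genes.

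In wild-type mice, WT-Flx was compared with WT-Veh. Again no member passed the adjusted threshold (0% of 16833 genes did) or an unadjusted p of 0.05 (4.2% of genes did), and none of 9 separated the groups (2.89% of genes did). The changes of 8 of 9 members were below 0, where 49.8% of all genes were above 0, and the median was -0.037 against -0.00091 over all genes. Nlgn2 gave the smallest p. It was at 7210, 7058, 7058 and 6906 in WT-Flx, a narrow range, and at 7052, 7865, 7923 and 7592 in WT-Veh. The groups overlapped only through WT-Veh replicate 1, and the change was -0.11 (SE 0.073, unadjusted limma p 0.17, adjusted p 1.00). In all, 3 of the 4 WT-Flx mice but 1 of the 4 WT-Veh mice had a bulb score above 6. With the score as a covariate the sign of the change turned for Shank1 (-0.037 to 0.26), Shank2 (-0.098 to 0.13), Nlgn1 (-0.015 to 0.075) and Nrxn3 (-0.0076 to 0.027), none past the threshold. Nlgn2 was then at -0.075. Without the mice scoring above 6, which left 1 WT-Flx mouse, the change was -0.14 for Nlgn2, -0.13 for Nrxn2, -0.0080 for Shank1 and -0.0094 for Shank2.

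Of the 4 comparisons of 2 groups, the largest member difference was between the genotypes after fluoxetine. Here 8 of 9 members were higher in HT-Flx than in WT-Flx, where 51.6% of all genes were, with a median of 0.14 against 0.0081. No member passed an adjusted p of 0.05 (0.0417% of 16788 genes did). An unadjusted p under 0.05 was seen for 3 of 9 members, all higher, where 10.4% of all genes passed (5.58% higher). The groups did not overlap for 2 of 9 members, where 5.83% of all genes did not overlap.

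Of these, Shank2 was at 7761, 8375, 9491 and 7993 in HT-Flx and at 5189, 5930, 7677 and 6170 in WT-Flx. Every HT-Flx mouse was above every WT-Flx mouse. The closest values were 7761 in HT-Flx and 7677 in WT-Flx replicate 3, the only mouse of its group with a score below 6. The change was 0.44 (SE 0.12, unadjusted limma p 0.0030, adjusted p 0.32). The exact permutation test gave p 0.029, the smallest that 4 against 4 mice allows.

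Nlgn2 was at 7587, 8523, 8150 and 7811 in HT-Flx and at 7210, 7058, 7058 and 6906 in WT-Flx, with no overlap. Its change was 0.18 (SE 0.077, unadjusted limma p 0.035, adjusted p 0.45; exact permutation p 0.029). Shank3 was at 9661, 8079, 10065 and 8779 in HT-Flx and at 7681, 6619, 8259 and 7430 in WT-Flx, so that 1 HT-Flx mouse lay inside the WT-Flx range. Its change was 0.29 (SE 0.10, unadjusted limma p 0.014, adjusted p 0.38; exact permutation p 0.057). Changes of Shank1 (0.20), Nlgn1 (0.14), Dlg4 (0.075), Nlgn3 (0.073) and Nrxn3 (0.029) had 95% intervals that included 0, as did that of Nrxn2 (-0.098).

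The bulb score moved with this comparison, since 3 of 4 WT-Flx mice and no HT-Flx mouse scored above 6. With the score as a covariate the change was 0.18 (SE 0.18) for Shank2, 0.12 (SE 0.16) for Shank3 and 0.16 (SE 0.13) for Nlgn2. Without the mice above 6, which left 1 WT-Flx mouse that was taken to vary like the HT-Flx mice, it was 0.13, 0.14 and 0.18. The Shank2 and Shank3 differences were thus smaller in both fits than with all mice. For Nlgn2 the unadjusted limma p was 0.25 with the covariate and 0.16 without the mice above 6, and quantile normalization lowered its change to 0.095 (unadjusted limma p 0.20). Shank1 turned to -0.072 and -0.13. The part of bulb tissue in these differences was not tested beyond these fits.

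**Figure D4:**
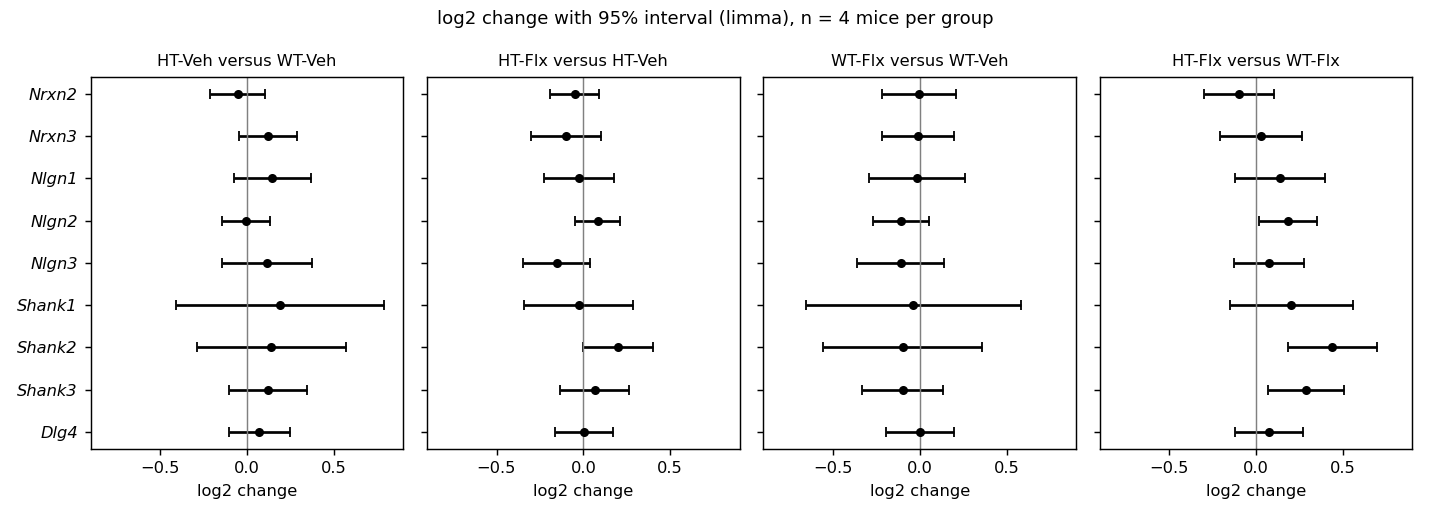
log2 change of each gene with its 95% interval from limma in the 4 comparisons of 2 groups, 4 mice per group. Intervals exclude 0 in HT-Flx versus WT-Flx for Shank2 (0.18 to 0.70), Shank3 (0.069 to 0.50) and Nlgn2 (0.015 to 0.35), and in none of the other panels.

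Over both treatments, HT was higher than WT for 8 of 9 members, where 51.1% of genes were higher, with a median of 0.095 against 0.0044 over all genes. The 4 comparisons above share mice with this one, so the values are not independent of them. No member passed the adjusted threshold (0.0398% of 17567 genes did), and 2 of 9 had an unadjusted p under 0.05, both higher, where 11.9% of genes did (6.42% higher). Shank3 changed by 0.20 (SE 0.072, unadjusted limma p 0.011, adjusted p 0.35) and Shank2 by 0.29 (SE 0.12, unadjusted limma p 0.029, adjusted p 0.39). The mean ± SD of Shank3 over 4 mice was 8042 ± 907 for WT-Veh, 8746 ± 885 for HT-Veh, 7497 ± 681 for WT-Flx and 9146 ± 891 for HT-Flx. When genotype was permuted within treatment, a test added after the limma values had been seen, the exact p was 0.019 for Shank3, 0.050 for Shank2 and 0.039 for Nlgn2 (change 0.088), without correction over the 9 members. With the bulb score as a covariate the changes were 0.13 for Shank3, 0.066 for Shank2 and 0.047 for Nlgn2. Without the 5 mice scoring above 6 they were 0.063, 0.037 and 0.039.

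**Figure D5:**
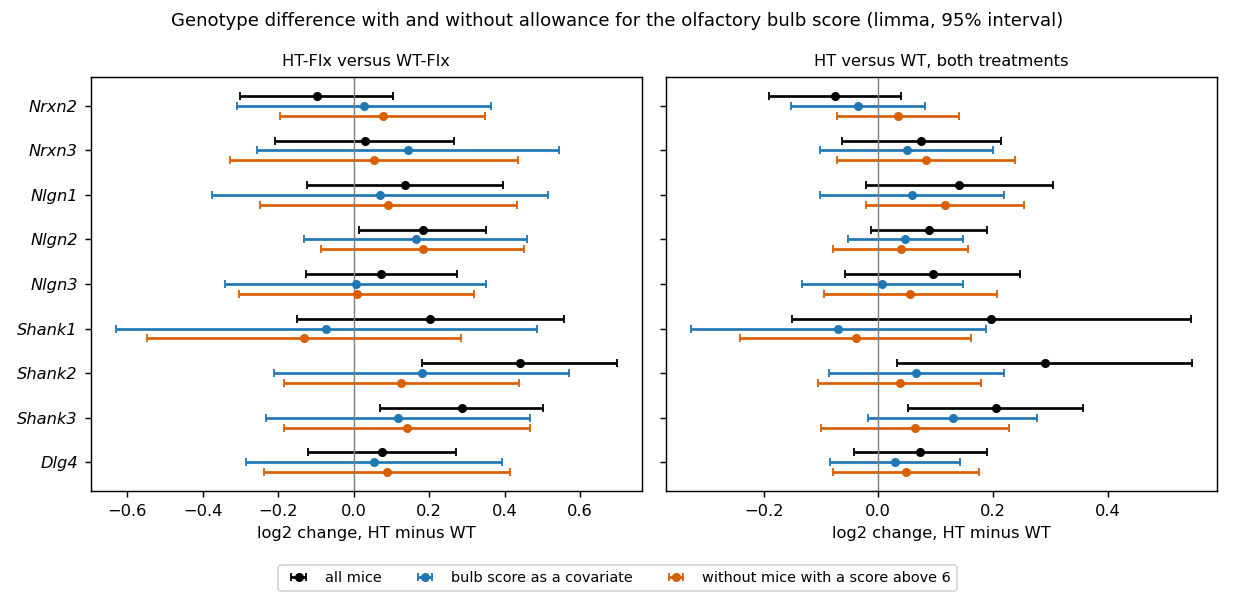
log2 change (HT minus WT) with 95% interval from limma for HT-Flx versus WT-Flx (left) and for genotype over both treatments (right), with all mice (black), with the bulb score as a covariate (blue) and without the mice scoring above 6 (orange). With all mice Shank2 stands at 0.44 on the left and 0.29 on the right, and every blue and orange interval includes 0.

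Fluoxetine over both genotypes and the interaction gave no member past the adjusted threshold (0% of 17567 genes in each). For fluoxetine, none of 9 members had an unadjusted p under 0.05, where 3.11% of genes did. Nlgn3 came nearest, at -0.13 (SE 0.072, unadjusted limma p 0.083). Without the mice scoring above 6, which left 1 WT-Flx mouse, it was -0.19. For the interaction, the fluoxetine change in HT minus that in WT, 1 of 9 members had an unadjusted p under 0.05, where 4.29% of genes did. This was Nlgn2, whose mean in WT-Flx was 0.928 of that in WT-Veh and whose mean in HT-Flx was 1.06 times that in HT-Veh. Its mean ± SD over 4 mice went from 7608 ± 398 (WT-Veh) to 7058 ± 124 (WT-Flx) and from 7571 ± 205 (HT-Veh) to 8018 ± 409 (HT-Flx). The interaction was 0.19 (SE 0.087, unadjusted limma p 0.045, adjusted p 1.00), and its unadjusted p was above 0.05 under each of 5 other settings. It was 0.15 (unadjusted limma p 0.096) with the bulb score as a covariate, 0.22 (p 0.0501) without the mice above 6 and 0.12 (p 0.12) with quantile normalization, and the unadjusted limma p was 0.068 with a common upper quartile and 0.0504 with a replicate block. When a mouse was left out, the interaction ranged from 0.16 to 0.22 and its unadjusted limma p from 0.015 to 0.089.

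The promoters of Nlgn2 and Shank3 are shown because these members gave small unadjusted p-values in the genotype comparisons and have a single start in the RefSeq table. They are the 250 bases before the start in GRCm38.p6, with the letters GGGCGG, a GC box, in capitals where found on either strand (as CCGCCC on the other).
Nlgn2 promoter: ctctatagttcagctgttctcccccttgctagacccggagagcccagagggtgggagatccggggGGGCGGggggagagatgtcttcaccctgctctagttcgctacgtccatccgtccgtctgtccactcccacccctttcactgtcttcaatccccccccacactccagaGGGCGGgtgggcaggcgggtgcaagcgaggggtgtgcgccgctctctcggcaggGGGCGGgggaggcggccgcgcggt
Shank3 promoter: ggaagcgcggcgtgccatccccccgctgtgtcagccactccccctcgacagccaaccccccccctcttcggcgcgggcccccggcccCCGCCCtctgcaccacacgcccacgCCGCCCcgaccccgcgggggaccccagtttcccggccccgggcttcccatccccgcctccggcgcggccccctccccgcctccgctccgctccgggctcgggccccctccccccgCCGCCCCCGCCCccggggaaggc
The Nlgn2 stretch is chr11:69837785-69838034 on the minus strand and holds 3 matches, 18 CpG and 67.6% GC. The Shank3 stretch is chr15:89499358-89499607 on the plus strand and holds 4 matches, 31 CpG and 82.4% GC. Of 32851 promoters of the same length, 32.7% held at least 1 match, the median number of CpG was 6, and 94.8% had fewer CpG than Shank3. The table also had entries for Nlgn1, Nrxn3 and Dlg4, of which 1 of 3 Dlg4 entries held 1 match and none of the others did. Nrxn2, Nlgn3, Shank1 and Shank2 were not matched.

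Some members varied together between mice. The member most like each one was found from deviations from the group means over 16 mice, and Shank1 and Shank2 were each other's nearest (r 0.94). These mice fall into clusters by bulb score. Among the 11 mice scoring below 6, r was taken from log2 values with the group means left in. It is thus a different measure, and by it the r of Shank1 and Shank2 was 0.23. Without the 2 mice farthest from the Shank1 median, the r of this pair was 0.67. In those 11 mice 36 pairs of members had a median r of 0.22 and a range of -0.62 to 0.82, and 2 pairs passed an adjusted permutation p of 0.05. Shank3 and Dlg4, the scaffold genes, had r 0.82 (permutation p 0.0012, adjusted p 0.045) and rho 0.89 (permutation p 0.00052, adjusted p 0.014). Without the 2 mice farthest from the Shank3 median, r was 0.62. Nrxn3 and Nlgn1 had r 0.80 (permutation p 0.0026, adjusted p 0.047) and rho 0.88 (permutation p 0.00077, adjusted p 0.014). Without the 2 mice farthest from the Nrxn3 median, r was 0.95. The lowest r was that of Nlgn1 and Shank1, at -0.62 (adjusted p 0.34). The values share a normalization, and the 11 mice came from 4 groups, with 1 from WT-Flx. They were permuted across groups, so differences between groups can enter these correlations and their p-values.

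Other genes of the same synapses were taken from fixed lists. Of 20 partners of neurexins and neuroligins, 15 excitatory scaffolds and 4 genes of the inhibitory postsynapse, none passed the adjusted threshold in any of the 7 comparisons of groups. In HT-Veh versus WT-Veh, 2 of 19 partners tested had an unadjusted p under 0.05, where 4.88% of all genes did. The lower p belonged to Clstn3, a calsyntenin that binds neurexins, at -0.16 (SE 0.057, unadjusted limma p 0.019). The other was C1ql3, a secreted protein of the synapse that was named after its values were seen, at 0.36 (SE 0.15, unadjusted limma p 0.035). Clstn3 also led in WT-Flx versus WT-Veh, at -0.34 (SE 0.085, unadjusted limma p 0.0025, adjusted p 1.00). The groups did not overlap for Clstn3 in either comparison, where 3.84% and 2.89% of all genes did not overlap. Among the excitatory scaffolds Baiap2 had the smallest p in both comparisons. Its log2 changes were 0.11 (unadjusted limma p 0.12) and 0.16 (unadjusted limma p 0.054, groups not overlapping, as for 2.89% of all genes). Among the genes of inhibitory synapses the smallest p was that of Slitrk3 in the first comparison, at 0.22 (unadjusted limma p 0.10). In the second it was that of Gphn, at 0.20 (unadjusted limma p 0.10). In HT-Flx versus HT-Veh none of these genes reached an unadjusted p of 0.05, and Homer1, a scaffold that binds Shank proteins, had the largest of the leading changes, 0.37 (SE 0.21).

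In HT-Flx versus WT-Flx, 3 of 15 excitatory scaffolds, 5 of 20 partners and 1 of 4 inhibitory genes had an unadjusted p under 0.05, where 10.4% of all genes did. The leaders were Dlgap2, which links PSD-95 to Shank (0.45, SE 0.14, unadjusted limma p 0.0074), Cbln1, a secreted neurexin ligand (-1.44, SE 0.48, unadjusted limma p 0.011), and Gphn, which encodes gephyrin, the scaffold of inhibitory synapses (-0.24, SE 0.091, unadjusted limma p 0.023). Median changes were 0.17 for the excitatory scaffolds, 0.13 for the partners and 0.084 for the inhibitory genes, against 0.0081 over all genes. Dlgap2 and Cbln1 also moved with the bulb score, where 12.7% of all genes passed. With rising score 3 partners rose, namely Cbln1 (0.60 per unit, adjusted p 5.9e-06), Mdga1 (0.29) and Cbln4 (0.18), and 6 fell, namely Adgrl3 (-0.12), Adgrl2 (-0.092), Adgrl1 (-0.082), Apba1 (-0.078), Apba2 (-0.069) and Clstn2 (-0.058). Among the excitatory scaffolds Dlgap2 (-0.15), Magi2 (-0.12) and Dlg2 (-0.12) fell, and none of the 4 inhibitory genes passed in limma, although 3 had an unadjusted p under 0.05, where 27.9% of all genes did.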

How the data were processed

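RNA sequencing was performed on the medial prefrontal cortex of 16 mice in 4 groups, taken with their replicate numbers from the sample titles. The authors prepared stranded mRNA libraries, quantified paired-end reads with Salmon (version 1.1.0) on GRCm38, summarised them to genes and normalized them in DESeq2 (version 1.30.1, in R 4.1.1, per the submitters' processing notes). The deposited signal is thus a normalized read count of 18424 genes, not a count. Among the low values of each sample, 1.56 to 3.38% were whole multiples of its smallest value, within 0.01. The smallest value need not stand for 1 read, so this share does not give the depth. Depth is unknown, no interval that needs it is given, and no count test was run.

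Since the values were not counts, log2 changes were fitted in limma 3.58.1 (R 4.3.3; lmFit, then eBayes with a trend) on log2(value + 1) over genes with at least 10 in at least 4 samples of the fit, which all 9 members passed in every comparison. A log2 change on this scale understates that of low genes. P-values were two-sided and adjusted over all genes by Benjamini and Hochberg, with a threshold of 0.05. Single genes were also compared by exact permutation tests (SciPy 1.17.1, two-sided), and correlations by 100000 permutations. Nothing in the labels says how litters fell among groups. Positions, lengths and coding ends were read from GENCODE on GRCm38, and promoters from RefSeq.

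The members and gene lists were chosen with earlier results of these data known, the olfactory bulb markers and the score limit of 6 among them. Named were all members, Arid1b, listed partner genes past an adjusted p of 0.05, and the partner of each list with the smallest p in each comparison of 2 groups. Of the listed genes, 2 were left out and are not reported here. Alternatives were pseudocounts of 0.1 and 8, no filter, a mean of at least 100, quantile normalization, a common upper quartile, a fit of all 4 groups, a replicate block, the bulb score as a covariate, leaving out the mice scoring above 6, exact permutation and leaving out each mouse. Permuting genotype within treatment was chosen after seeing the data. On simulated data for HT-Veh versus WT-Veh with 200 of 16832 genes changed by a log2 of 1, 88.0% were recovered and 6.38% of calls were false. The simulated noise was independent between genes, so it lacked the variation shared with the bulb score. The largest member change between 2 groups was 0.44, for Shank2 in HT-Flx versus WT-Flx. The recovered share therefore does not apply to changes of the size seen here.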

Additional observations from a re-analysis of the deposited data

Results flagged for a closer look

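In 36 groups of 4 mice (9 genes by 4 groups), 3 values, from 2 mice, stood apart from the rest of their group by Dixon's criterion, which chance meets in about 1 of 20 groups. In WT-Veh, replicate 1 had the lowest Shank1, 13046 against 30151 to 30786 in the other 3 mice, and the lowest Nlgn1, 1640 against 2045 to 2095. This mouse also had the highest bulb score (9.61) and the lowest score of glutamatergic markers (13.30) of all 16, and their part in these values was not tested. In HT-Veh, replicate 1 had the highest Nlgn2, 7875 against 7426 to 7496, with a bulb score of 4.66.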

How the results depend on the processing

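No member passed the adjusted threshold in any of the 7 comparisons of groups under any alternative adjusted over all genes. Of 1575 alternative values over 72 member results, 1438 were counted as keeping their direction and their side of the threshold. The exact permutation values were all counted as kept without a comparison. They use the same difference of means, so they could not turn, and their p-values were not adjusted. Those exact permutation p-values were under 0.05 for Shank2 and Nlgn2 in HT-Flx versus WT-Flx (0.029 each). Over both treatments they were under 0.05 for Shank3 (0.019) and Nlgn2 (0.039). The direction turned in 124, of which 86 came from leaving out a mouse, and the largest value that turned was 0.30 with all mice (the Shank2 interaction). These comparisons had 4 mice per group that varied, an unknown depth and an uneven bulb score. The part of each in these results and the cause of each turn were not tested.

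Counts of all genes past the threshold moved more. In HT-Veh versus WT-Veh the count of 3 became 0 with all 4 groups in the fit or the replicate block, 19 with the bulb score as a covariate, 11 without the mice scoring above 6 and 0 to 2 when a mouse was left out. In WT-Flx versus WT-Veh the count of 0 (707 at an unadjusted p under 0.05) became 1 with the covariate, 9 without the mice scoring above 6 and 0 to 4 when a mouse was left out. In HT-Flx versus WT-Flx the count of 7 became 4 with a pseudocount of 0.1, with quantile normalization or with all 4 groups, 0 with a mean of at least 100 or the covariate, 2 without the mice scoring above 6, and 0 to 23 when a mouse was left out. For genotype over both treatments, 7 became 4 without the mice scoring above 6 and 1 to 13 when a mouse was left out. For the interaction, 0 became 2 without the mice scoring above 6. For the bulb score, 2225 became 952 with the replicate block and 149 to 3423 when a mouse was left out.

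With the bulb score as a covariate the direction turned, to these log2 values, for Dlg4 (-0.020) in HT-Flx versus HT-Veh, for Nrxn3 (0.027), Nlgn1 (0.075), Shank1 (0.26) and Shank2 (0.13) in WT-Flx versus WT-Veh, for Nrxn2 (0.027) and Shank1 (-0.072) in HT-Flx versus WT-Flx, and for Shank1 (-0.070) over both treatments. It also turned for Nlgn1 (0.00055), Shank1 (0.035) and Shank3 (0.0016) with fluoxetine and for Nrxn2 (0.015), Shank1 (-0.42), Shank2 (-0.018) and Dlg4 (-0.066) in the interaction. Without the mice scoring above 6 it turned for Nrxn2 (0.012) and Shank2 (-0.0099) in HT-Veh versus WT-Veh, Dlg4 in HT-Flx versus HT-Veh (-0.011) and WT-Flx versus WT-Veh (-0.074), and Nrxn2 (0.077) and Shank1 (-0.13) in HT-Flx versus WT-Flx. In the same mice it turned for Nrxn2 (0.035) and Shank1 (-0.039) with genotype, Nlgn2 (0.010), Shank3 (0.051) and Dlg4 (-0.030) with fluoxetine, and Nrxn2 (0.065) and Shank1 (-0.14) in the interaction.

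With a common upper quartile Dlg4 turned in HT-Flx versus HT-Veh (-0.017), with fluoxetine (-0.0076) and in the interaction (-0.018), as did Shank1 in the interaction (-0.011). With quantile normalization Nrxn2 (0.024), Nrxn3 (0.0099) and Dlg4 (-0.024) turned in WT-Flx versus WT-Veh, Nrxn3 (-0.037) in HT-Flx versus WT-Flx, Dlg4 (-0.0071) with fluoxetine and the bulb slope of Nlgn2 (0.0088). Under that normalization the bulb slope of Nlgn3 (-0.051) lost its call and that of Nrxn2 (0.054) gained one. The slope of Nlgn1 gained a call without WT-Flx replicate 2 (-0.064, adjusted p 0.019).

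When a mouse was left out, changes in HT-Veh versus WT-Veh ranged from -0.042 to 0.014 for Nlgn2, -0.11 to 0.32 for Shank1 and -0.084 to 0.25 for Shank2. In HT-Flx versus HT-Veh the ranges were -0.091 to 0.036 for Nlgn1, -0.15 to 0.094 for Shank1 and -0.050 to 0.055 for Dlg4. In WT-Flx versus WT-Veh they were -0.065 to 0.053 for Nrxn2, -0.066 to 0.048 for Nrxn3, -0.11 to 0.061 for Nlgn1, -0.34 to 0.12 for Shank1, -0.32 to 0.0061 for Shank2 and -0.060 to 0.032 for Dlg4, and Nrxn3 in HT-Flx versus WT-Flx ranged from -0.030 to 0.099. With fluoxetine they were -0.063 to 0.015 for Nlgn1, -0.034 to 0.0039 for Nlgn2, -0.17 to 0.041 for Shank1, -0.041 to 0.11 for Shank2, -0.051 to 0.016 for Shank3 and -0.025 to 0.025 for Dlg4. In the interaction they were -0.10 to 0.015 for Nrxn2, -0.086 to 0.082 for Nlgn1, -0.12 to 0.054 for Nlgn3, -0.14 to 0.32 for Shank1 and -0.050 to 0.064 for Dlg4, and the bulb slope of Nrxn3 ranged from -0.032 to 0.00089.

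Whether mice of different groups with the same replicate number were paired is not known. In no comparison did every same-numbered pair correlate above 0.1, with mean correlations of 0.011 to 0.10, and not every mouse correlated best with its own number. In WT-Flx versus WT-Veh, 3 of 4 such pairs were above 0.1, with a mean of 0.10 against -0.031 for other pairs. There the replicate block moved the genes at an unadjusted limma p under 0.05 from 707 to 1237. This check cannot exclude pairing. With the replicate block the bulb slope of Nlgn3 was -0.075 (adjusted p 0.058), so this call was lost, and no other member call changed.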
